A study of Homo sapiens with 9 samples.

Results

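A stretch of chromosome 15 named for TPM1 was examined for binding of p65 and TEAD by chromatin immunoprecipitation sequencing (ChIP-seq) in the human cell line 786-O, which derives from a clear cell renal carcinoma. Members were all peaks with a summit between positions 63300000 and 63440000 of build hg19, a window of 140 kb. They numbered 19 of the 60345 peaks in the 5 deposited lists: 5 p65 peaks in control cells, 1 in the list labelled siTEAD4, 6 in vehicle cells, 1 in XMU-MP-1 cells, and 6 TEAD peaks in XMU-MP-1 cells. The window was chosen by its TEAD fold and its p65 calls: it holds 1 of the strongest TEAD sites of the series, with p65 peaks in all 4 p65 lists. The strength and the sharing of that site are therefore a description.

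Of the 9 libraries, 4 are input chromatin and 5 are immunoprecipitates, with 1 library per condition. Control cells carry no treatment label, and the vehicle is not named. The siRNA sample is titled siTEAD4 and its treatment label reads siTEAD. XMU-MP-1 inhibits MST1 and MST2, the core kinases of the Hippo pathway. The sources used here do not give the dose, the duration, the siRNA control or which TEAD protein was immunoprecipitated. Peak identifiers in the siRNA list carry another name, p65_Vert, so its treatment rests on the label. All libraries come from 1 cell line, and TEAD was profiled under XMU-MP-1 only, so no TEAD value exists here for cells without the inhibitor.

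TPM1 encodes a tropomyosin, a coiled-coil protein that lies along actin filaments and sets the access of myosin and other proteins to them. Non-muscle cells use it in stress fibres, and its several promoters give isoforms of different length. TEAD proteins bind DNA and recruit YAP or TAZ, the coactivators that Hippo kinases hold out of the nucleus. Many genes of the actin cytoskeleton are known targets of YAP and TEAD. The p65 protein, also called RELA, is the NF-κB subunit with a strong activation domain, and it enters the nucleus when its inhibitor is degraded.

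No annotation of hg19 was used, so peaks are given by position and not assigned to exons, introns or promoters, and the place of TPM1 in the window was taken from the window's name and not checked. In RefSeq on GRCh38.p14 the next protein-coding genes in order are TLN2 on one side of TPM1 and LACTB, RPS27L and RAB8B on the other. TLN2 encodes a talin, which links integrins to actin. A single RefSeq promoter of TPM1 is shown. The gene's other promoters are not shown, and no sequence of a peak was read. The 250 bases before the transcript start of this promoter, on the plus strand of GRCh38.p14 (chr15:63048239-63048488), have a GC content of 78.4%. Capitals mark GGG and CC with 5 bases between them, a loose form of the NF-κB motif:
TPM1 promoter: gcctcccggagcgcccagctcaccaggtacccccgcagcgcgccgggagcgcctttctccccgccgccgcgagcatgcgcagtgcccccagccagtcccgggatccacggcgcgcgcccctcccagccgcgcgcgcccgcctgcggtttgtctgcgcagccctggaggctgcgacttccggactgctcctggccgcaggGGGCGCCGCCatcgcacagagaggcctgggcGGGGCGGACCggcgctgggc
The 2 capital runs lie 51 to 42 and 20 to 11 bases before the start. Such a match on either strand was present in 54.4% of 35116 RefSeq promoters of that length. The run nearer to the start overlaps both matches to the GC box GGGCGG, which 42.6% of promoters hold. A stricter form, GGG and TTTCC with 2 bases between them, had no match in this stretch and was found in 1.73% of promoters. The TEAD core GGAATG, held by 11.9% of promoters, and the AP-1 motif TGANTCA (6.57%) had none either, on both strands. The CArG box of serum response factor, known from muscle and actin genes, also had none and was found in 1.16%. Whether a peak of the window lies on these bases was not determined, since the builds differ.

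When peaks that overlapped by at least 1 bp were joined, the 19 peaks formed 9 sites, numbered here along the chromosome. They spanned 103.2 kb. The fold of a peak is the authors' enrichment at the summit over the local background used for that list. Whether an input library supplied this background is not given. Folds describe and rank peaks within a list and do not measure a change between lists. Site 8 was called in all 5 lists. Sites 3 and 6 were called in the control, vehicle and TEAD lists, and sites 7 and 9 in the control and vehicle lists. The remaining 4 sites were called in 1 list each, site 1 in the vehicle list and sites 2, 4 and 5 in the TEAD list. Sites 4 to 9 lay within 33.4 kb, and 6 of the 9 sites had their summits within 20 kb of the strongest TEAD summit.

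**Figure D1:**
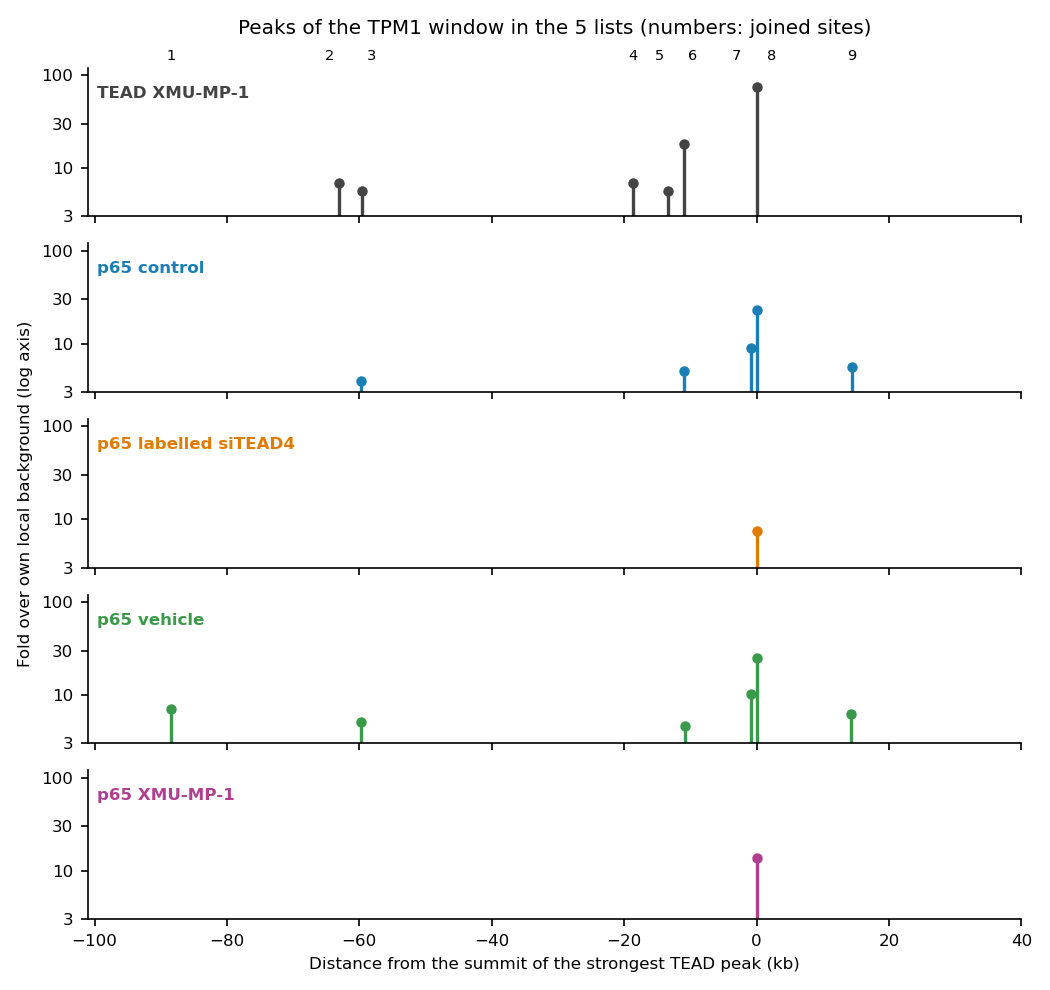
Fold of every peak in the window (log axis), plotted against the distance of its summit from the strongest TEAD summit in kb, with 1 panel per list and site numbers on top. Both treated p65 lists have a single peak, at site 8, where all 5 lists coincide.

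Site 8 covered chromosome 15 from 63399902 to 63400832. TEAD binding there had a fold of 75.2, the third highest of 23460 TEAD peaks (the top 0.0128%) and the highest on the chromosome. The control p65 peak had a fold of 23.04, rank 173 of 15465, and the vehicle p65 peak a fold of 24.9, rank 171 of 17958. The XMU-MP-1 p65 peak had a fold of 13.6, rank 83 of 1649, and the peak labelled siTEAD4 a fold of 7.40, rank 385 of 1813. The site was therefore in the strongest 1.12% of control and 0.952% of vehicle peaks, the strongest 5.03% of the XMU-MP-1 list, and the strongest 21.2% of the list labelled siTEAD4. Ranks from lists of such different lengths show no change. On chromosome 15 the XMU-MP-1 peak ranked 1, the control peak 6, the vehicle peak 7 and the peak labelled siTEAD4 12.

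The 4 p65 summits at site 8 nearly coincided, and all lay on the same side of the TEAD summit. The control and vehicle summits were 2 bp apart. The median over the 12297 control peaks with a vehicle peak was 31 bp (interquartile range 13 to 57). That set holds peaks of all strengths, and strong peaks alone were not compared. All pairs of the 4 p65 summits were 2 to 27 bp apart. From the TEAD summit the XMU-MP-1 p65 summit was 96 bp away, the vehicle summit 103 bp, the control summit 105 bp and the summit labelled siTEAD4 123 bp, each toward higher coordinates. The median distance in XMU-MP-1 cells between p65 and TEAD summits of overlapping peaks was 56.5 bp over 1240 pairs, and 68.8% of the pairs were closer than at site 8. The p65 peaks, of 436 to 676 bp, lay wholly inside the TEAD peak of 931 bp.

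**Figure D2:**
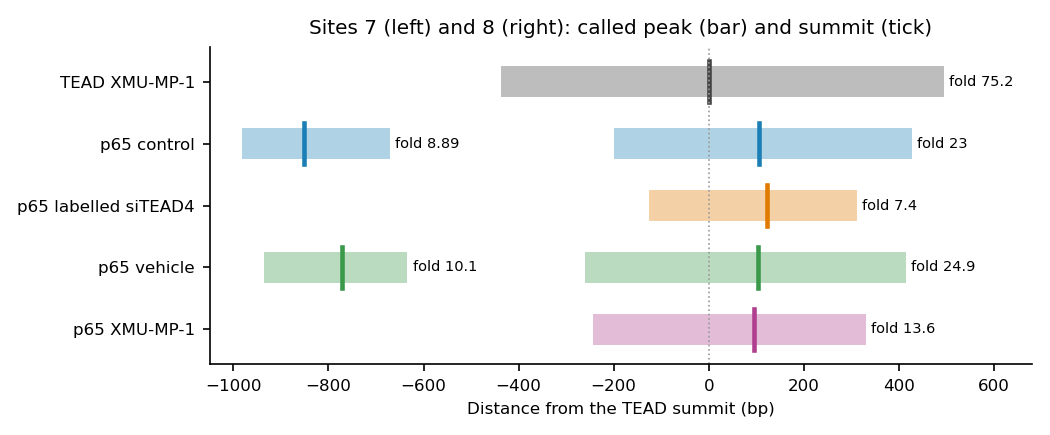
Called peaks (bars) and summits (ticks) of sites 7 and 8 in each list, by distance in bp from the TEAD summit of site 8. The 4 p65 ticks of site 8 fall between 96 and 123 bp to the right of the TEAD tick, and site 7 has bars in the control and vehicle lists only.

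The number of fragments over each summit was solved from the deposited fold and p-value. TEAD had 198 fragments at site 8 over a local background of 1.65. For p65, the vehicle library had 94 fragments over 2.82 and the list labelled siTEAD4 59 over 7.11. The control library had 132 fragments and the XMU-MP-1 library 68. Their pileups were scaled by 0.587 and 0.783, to 77.4 over a background of 2.41 and 53.2 over 3.0. Relative to its list, the local background of the peak labelled siTEAD4 was the highest at site 8. It was 3.04 times the floor of its list and above that of 91.7% of the list's peaks. In the other 4 lists the background at site 8 was 1.52 to 2.26 times the floor. It was above that of 33.5% of peaks in the XMU-MP-1 p65 list, 34.2% for TEAD, 52.2% for control and 79.2% for vehicle. Elsewhere in the window, the vehicle peak of site 6 had a background of 3.83 times the floor and the control peak there 2.95 times.

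Each treated p65 list was read against its reference for which of the window's p65 peaks were still called. The siRNA sample addresses which p65 sites are still called under an siRNA against TEAD, whose depletion these lists cannot check. Of the 5 control peaks in the window, 1 had a peak labelled siTEAD4 (20%, exact 95% interval 0.505 to 71.6), against 11.2% of all control peaks. The inhibitor sample addresses the same for cells with MST1 and MST2 blocked. Of the 6 vehicle peaks, 1 had an XMU-MP-1 peak (16.7%, 0.421 to 64.1), against 8.77% of all vehicle peaks. Intervals this wide hold the shares of the whole lists, and site 8 was in part chosen for being kept, so these counts show nothing particular to the window. With 1 library per condition no difference has a replicate check, and no test was made. Intervals cover the counting of peaks only.

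The control and vehicle lists were compared in the same way. All 5 control peaks had a vehicle peak (exact 95% interval 47.8 to 100%), against 79.5% of all control peaks. A control peak was found at 5 of the 6 vehicle peaks (83.3%, 35.9 to 99.6), against 68.5%. Both intervals hold the share of the whole list, and site 8 was chosen for its p65 peaks in both lists. The vehicle peak without a control peak was site 1, from 63311747 to 63311994, which was called in vehicle cells alone at a fold of 7.08. It lay 88.4 kb from the strongest TEAD summit, the farthest of the 9 sites.

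The 4 control sites that had no peak labelled siTEAD4 were weaker than site 8. Site 7 had a control fold of 8.89, site 9 of 5.65, site 6 of 5.01 and site 3 of 3.93. They fell in the third, sixth, eighth and weakest deciles of control fold, in which 11.9%, 2.71%, 1.55% and 2.39% of peaks had a peak labelled siTEAD4. Site 8 was in the strongest decile, in which 57.5% (Wilson 95% interval 55.02 to 59.9) did. Sites without a peak in the XMU-MP-1 list had vehicle folds of 10.1 at site 7, 7.08 at site 1, 6.29 at site 9, 5.14 at site 3 and 4.67 at site 6. The deciles of these 5 sites had shares kept of 1.17% to 16.4%, and that of site 8 had 46.7% (44.4 to 49.0). The same site was thus the strongest and the sole one kept in each comparison, by the values that chose the window. Absence from the much shorter treated lists does not show a loss of binding.

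**Figure D3:**
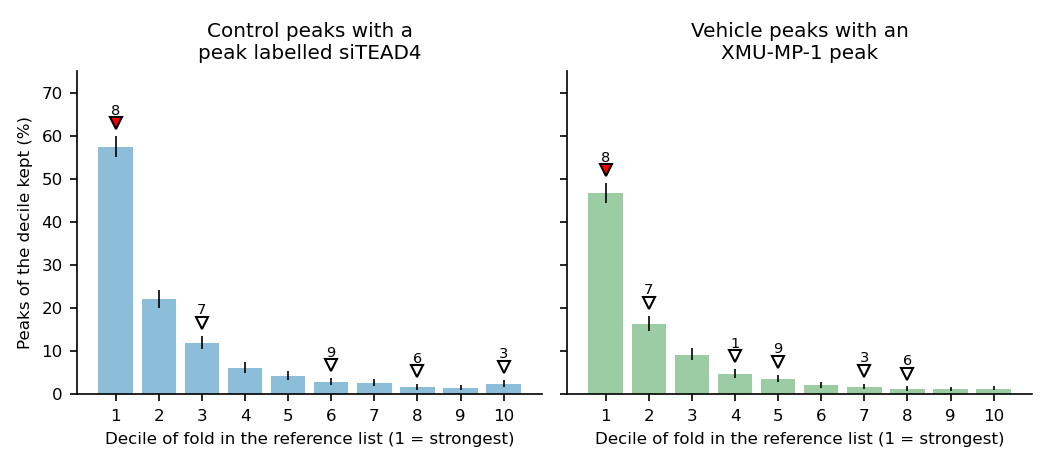
Share of control peaks with a peak labelled siTEAD4 (left) and of vehicle peaks with an XMU-MP-1 peak (right), in %, by decile of reference fold, with 95% Wilson intervals. Triangles mark the decile of each site of the window by number, red where kept, and only site 8, in the strongest decile, is red.

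How p65 fell relative to TEAD within the window was taken next. A TEAD peak lay at 3 of the 5 control p65 peaks (47.4% in the whole list) and at 3 of the 6 vehicle p65 peaks (45.6%). Conversely, 3 of the 6 TEAD peaks had a control p65 peak (30.9% of all TEAD peaks) and the same 3 a vehicle p65 peak (34.5%). Each of these shares of 6 has an exact 95% interval of 11.8 to 88.2%. A peak labelled siTEAD4 was at 1 of the 6 TEAD peaks (5.50% of all TEAD peaks) and an XMU-MP-1 p65 peak at 1 (5.26%), both at site 8. Both of these shares have an exact interval of 0.421 to 64.1%. Site 8 was chosen for its TEAD and p65 peaks, so every share in the window counts it by choice. The counts show nothing particular to the window.

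Site 6, from 63389078 to 63389700, was the other strong TEAD site. It lay 10.9 kb from site 8 and had a TEAD fold of 17.96, rank 1502 and in the strongest 6.4% of the list, with 67 fragments at the summit. Its p65 peaks were weak by fold, 5.01 (control) and 4.67 (vehicle), below the list medians of 5.98 and 5.87. By fragments they were not, at 41 (control) and 26 (vehicle) against list medians of 34 and 18. Their local backgrounds were 4.0 and 4.79, above the list medians of 2.41 and 2.13. The p65 summits lay 18 bp and 49 bp from the TEAD summit, closer than at site 8. No p65 peak was called there in XMU-MP-1 cells or in the list labelled siTEAD4. Of all TEAD peaks in the strongest decile, 15.4% (Wilson 13.98 to 16.9) had an XMU-MP-1 p65 peak.

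Site 7, from 63399356 to 63399703, had the opposite makeup, p65 without TEAD. Its control fold was 8.89 and its vehicle fold 10.1, rank 3383 and rank 2907, second only to site 8 in the window. A gap of 198 bp separated it from the joined site 8, so that joining peaks up to 500 bp apart would merge both, and its summits were 851 bp and 771 bp from the TEAD summit. A further peak of the same list within 1 kb was found for 11.2% of control and 12.5% of vehicle peaks, and for 12.2% and 14.04% in the strongest decile. Sites 7 and 8 thus form a doublet of p65 peaks. Site 8 has TEAD and remained called in both treated lists, but it was chosen for both traits. Site 7 was also the weaker of the doublet in both reference lists. The doublet therefore does not relate TEAD to being kept.

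Site 3, from 63340155 to 63341069, held weak peaks of 3 lists. The TEAD fold was 5.67, the vehicle fold 5.14 and the control fold 3.93, the last with a −log10 q of 2.68, the lowest of the 19 members. The peaks were long for their strength: the vehicle peak of 666 bp was the 774th longest of its list while 11672nd in fold. Site 9, from 63414433 to 63414915, carried p65 alone, at a control fold of 5.65 and a vehicle fold of 6.29, with summits 122 bp apart. It was the only site on the higher side of site 8, at 14.3 kb in the vehicle list.

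The TEAD peaks without p65 were modest. Site 2, from 63337111 to 63337416, and site 4, from 63381507 to 63381791, both had a fold of 6.87, with 23 fragments over a background of 2.49. Site 5, from 63386735 to 63387023, had a fold of 5.67 and 14 fragments. Sites 2 and 4 were above the list's medians of 6.27 for fold and 18 for fragments, and site 5 was below both. All 3 were 285 to 306 bp long, below the list's median of 350 bp, and none was in the strongest 40% of TEAD folds. In the window, the TEAD peaks with p65 thus included both strong ones and one, at site 3, with a fold no higher than those without.

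The number of peaks in the window was set beside that of tiles of the same width. In fixed tiles of 140 kb over all chromosomes, 8.01% of the 9396 tiles with any TEAD peak held at least 6, and the median was 2. At least 5 control p65 peaks were in 8.05% of tiles with any, and at least 6 vehicle peaks in 5.86%. The tiles were cut at fixed positions, but the window was chosen for holding site 8. These shares are therefore a description and do not rank its density. The TEAD peak nearest outside the window, 9.63 kb beyond its upper end, had a fold of 5.62. On the lower side the nearest peak of every list was at 1 site, 50.5 to 50.6 kb outside, where the p65 fold was 8.67 for control, 11.6 for vehicle, 4.41 for siTEAD4 as labelled and 4.86 for XMU-MP-1, and the TEAD fold 6.01. The next peak labelled siTEAD4 above the window was 1736 kb away and the next XMU-MP-1 p65 peak 2148 kb.

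Site 8 was then set among the 896 TEAD peaks, 3.82% of the list, that had a peak in each of the 4 p65 lists. Its TEAD fold was the highest of them, ahead of 70.01 at the next, where the median was 9.84 (interquartile range 6.35 to 15.9). The window was chosen for strong TEAD binding with p65 in all 4 lists, so this high standing was set by the choice. The p65 folds of site 8 were high but less extreme. The XMU-MP-1 fold ranked 69 of 896 (median 6.72), the control fold 104 (median 13.3), the vehicle fold 111 (median 14.6) and the fold labelled siTEAD4 261 (median 5.98). Over the same sites, then, it stood above 92.3% of XMU-MP-1 folds and above 70.9% of those labelled siTEAD4.

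**Figure D4:**
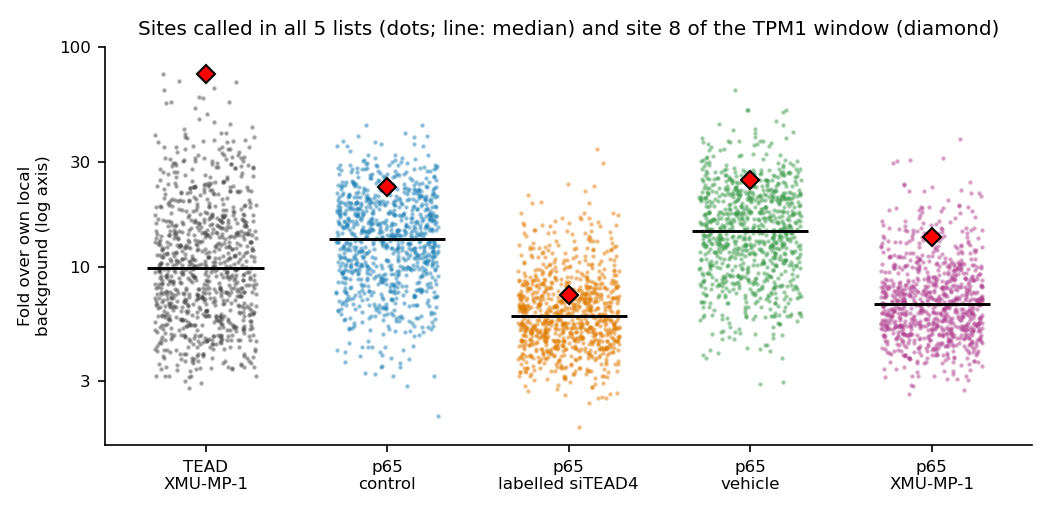
Fold (log axis) of the 896 sites called in all 5 lists, 1 column per list, with the median as a line and site 8 as a diamond. Site 8, chosen for its strong TEAD binding, is the highest for TEAD and sits nearest to the median in the list labelled siTEAD4.

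The standing in the list labelled siTEAD4 depended on the measure and on the peaks compared. By fold, the ratio of siTEAD4-labelled to control was 0.321 at site 8, against a median of 0.463 (0.342 to 0.651) over the 1737 control peaks kept, and 20.9% of them had a lower ratio. Among the 889 kept peaks of the strongest decile, where site 8 belongs, the median was 0.357 and 37.8% were lower. By fragments at the summit the ratio was 0.447, against a median of 0.368 (0.289 to 0.475), and 69.2% of all kept peaks and 85.2% of those in the strongest decile had a lower one. The site thus lay below the middle by fold and above it by fragments, in both sets of peaks. The part of the local background used for this list in that difference was not tested. For XMU-MP-1 over vehicle the ratio of folds was 0.546, with 56.3% of all kept peaks and 81.4% of those in the strongest decile lower. The ratio of fragments was 0.723, with 41.02% of all kept peaks and 61.3% of the strongest decile lower. By fragments the site therefore lay below the middle of all kept peaks and above that of the strongest decile. For vehicle over control, a pair with neither siTEAD4 nor XMU-MP-1, the ratio of fragments was 0.712 against a median of 0.571. There, 85.6% of all kept peaks and 94.8% of the strongest decile were lower, and by fold 53.6% and 68.8%. A high standing by fragments was thus not particular to the list labelled siTEAD4. These ratios place the site among the kept peaks of the same 2 libraries, and do not measure a change in binding.

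The strongest TEAD peaks next to site 8 in rank differed in their p65 peaks. The peaks ranked 1, 7 and 8, on chromosomes 1, 18 and 11 with TEAD folds of 79.6, 66.6 and 65.8, had no p65 peak in any list. Those ranked 2 and 4, on chromosomes 19 and 2, had control and vehicle p65 peaks with folds of 5.09 to 10.02 and none in the treated lists. Those ranked 5 and 6 had p65 in all 4 lists. At rank 5, on chromosome 22 from 30602735 to 30603557, the p65 fold was 6.41 for control, 5.99 for vehicle, 7.95 for siTEAD4 as labelled and 12.4 for XMU-MP-1. At rank 6, on chromosome 9 from 114803812 to 114804795, these folds were 12.4, 11.8, 9.49 and 16.2. Site 8 was the one of these 8 peaks with control and vehicle folds above 20, and its folds in the treated lists were below both. At ranks 5 and 6 the XMU-MP-1 fold was above the vehicle fold. The fold labelled siTEAD4 was above the control fold at rank 5 and below it at rank 6. Folds rank peaks within a list, so these orders do not measure a change in binding.

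**Figure D5:**
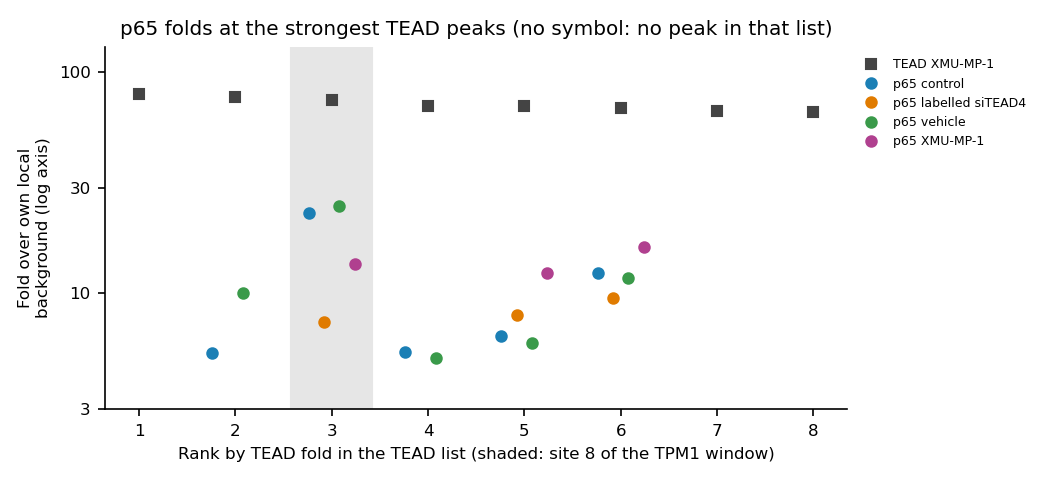
Fold (log axis) in each of the 5 lists at the 8 TEAD peaks of highest fold, by rank. Site 8, shaded, has the highest control and vehicle p65 folds of the 8, and 3 of the 8 have no p65 symbol.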

How the data were processed

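ChIP-seq peak lists of 5 immunoprecipitates, 1 library per condition, were used. The submitters' processing notes name fastp, Bowtie2 2.4.5, MACS2 and build hg19. The sources used here do not give the MACS2 settings or the input behind each list. The authors' deposited columns give, per peak, its fold over local background, its p-value and q-value as −log10, its summit offset and a score that was not used. Folds are the authors' own values and rank peaks within a list.

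Members were peaks with summits in the window. Every site called in 2 or more lists, the strongest of each list, and TEAD peaks up to 5 ranks from the strongest member were to be described. The members and lists were chosen with earlier results of these data known. Peaks overlapping by at least 1 bp counted as shared. Pileup and background at each summit were solved from the fold, (pileup + 1)/(background + 1), and the Poisson tail. The solutions met every −log10 p to within 0.005. Pileups were multiples of 0.587 in the control list, of 0.783 in the XMU-MP-1 list and whole numbers in the others, in 302 to 368 peaks checked per list to within 0.02 of 1 fragment. The floor of the background is its 1st percentile in a list. The lists give no read totals, so depth is seen only through these pileups. No numbers were skipped among peak identifiers in the window. Python 3.11.15, numpy 2.4.6, pandas 2.3.3 and scipy 1.17.1 were used. The code was tested on simulated data. Alternatives were limits on q and fold, a wider window, stricter overlaps and a joining gap of 500 bp. Tropomyosin and actin genes elsewhere were not analysed here, for want of an hg19 annotation.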

Additional observations from a re-analysis of the deposited data

How the results depend on the processing

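Peak numbers and shares were recomputed with a −log10 q of at least 5 or 10, a fold of at least 5, a window wider by 20 kb on each side, 50% of the shorter peak covered, and summits within 200 bp. Sites were also joined across gaps of up to 500 bp, which gave 8 sites in place of 9 by merging sites 7 and 8. Of 46 recomputed values, 45 stayed within 1.5 times the reported number or within the exact interval of the reported share, which is wide. The exception was the control p65 list, with 2 peaks in the window at a −log10 q of at least 10; the limit removes weak peaks. Site 8 passed each limit in all 5 lists. Chosen after seeing the data were the ratios by fragments and those within the strongest decile. There, 37.8% of kept control peaks had a lower ratio of siTEAD4-labelled to control fold than site 8, and 81.4% of kept vehicle peaks a lower ratio of XMU-MP-1 to vehicle fold. By fragments these shares were 69.2% and 41.02% over all kept peaks, and 85.2% and 61.3% in the strongest decile; the cause was not tested. No paired analysis was possible because no condition was sequenced in more than 1 library.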
